A study of Mus musculus with 56 samples.

Results

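The genes described here encode the enzymes and carriers of the urea cycle and the enzymes that free ammonia for it in mouse liver. The 10 members were chosen by gene symbol, as the first listed transcript of Cps1, Otc, Ass1, Asl, Arg1, Nags, Slc25a15, Slc25a13, Gls2 and Glud1, out of 23813 genes in the deposited table, and all 10 were found. Liver RNA was sequenced from 12 male mice in 3 groups of 4. For 16 days all were fed chow low in iodine that contained 0.15% propylthiouracil (PTU), a blocker of thyroid hormone synthesis. The hypothyroid WT mice (genotype WT, treatment PTU) had vehicle injections toward the end of this time, over 4 to 6 days, and the hyperthyroid WT mice (genotype WT, treatment PTU_T3) were injected with 5 μg of the hormone T3 instead. The third group (genotype L-NCORdeltaID, treatment PTU) was hypothyroid like the first. In the liver it carried a form of the corepressor NCOR1 that lacks domains through which it contacts the thyroid hormone receptor. L-NCORdeltaID mice were kept on a mixed C57BL/6;129S background. The labels of the RNA samples do not say whether the WT mice shared it, the driver of the liver allele and the age of these 12 mice are not given in the sources used here, and over all animals of the study the WT mice were on average older. Mutation, strain and age can therefore not be told apart between these groups.

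The urea cycle turns the ammonia that is left over from amino acids into urea, which the kidney excretes. Its first steps run in the mitochondria of hepatocytes and its last steps in the cytosol, and carriers move ornithine, citrulline and aspartate between the compartments. Liver glutaminase and glutamate dehydrogenase release ammonia next to the entry enzyme. Periportal hepatocytes, which see incoming blood first, are known for a high urea cycle capacity, while a thin layer of pericentral hepatocytes captures what ammonia remains as glutamine. Thyroid hormone acts through nuclear receptors that can bind NCOR1 when no hormone is present. The comparisons ask which members differed after T3 and which differed in livers whose NCOR1 lacks domains that contact these receptors.

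Values are RPKM (reads per kilobase of transcript, scaled to the aligned reads of the library), so that levels can be compared between genes. Averaged over the 12 livers, Arg1 (1117 RPKM) and Cps1 (1042 RPKM) ranked 43 and 47 among all genes. They were followed by Ass1 (479 RPKM), Asl (313 RPKM), Glud1 (280.4 RPKM), Otc (181 RPKM), Gls2 (153 RPKM), Slc25a15 (133 RPKM), Slc25a13 (84.6 RPKM) and Nags (37.7 RPKM, rank 1386). In hypothyroid WT livers the order was the same except that Cps1, at 1161 ± 16.8 RPKM (mean and SD, n = 4), stood above Arg1, at 973 ± 66.2 RPKM, and the libraries of these 2 genes did not overlap. Among neighbours in the order of that group, Gls2 overlapped with Slc25a15, and Slc25a15 with Slc25a13. Of the RPKM summed over the first listed transcript of each gene (377335 to 412558 RPKM per library), the members together made up 0.943 to 0.978% in hypothyroid WT livers, 0.738 to 1.01% after T3 and 0.953 to 1.23% in L-NCORdeltaID livers.

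Over all listed transcripts, the libraries summed to 491073 to 529372 RPKM. Total reads are not part of the table. Depth relative to hypothyroid WT replicate 1 was estimated from the most common ratio between low values of the same transcript. That ratio was assumed to stand for equal read numbers and rested on 98 to 197 transcripts in each other library. It gave depths between 0.682 and 1.36, lowest in the T3 group (0.682 to 0.834) and highest in L-NCORdeltaID (1.22 to 1.36). The targeted gene Ncor1 had 15.6, 14.3, 14.6 and 14.1 RPKM in hypothyroid WT, 14.3, 17.6, 18.5 and 14.3 RPKM after T3 and 13.4, 12.1, 12.4 and 13.9 RPKM in L-NCORdeltaID livers (adjusted p = 0.204, limma). A value over the whole transcript does not test for the missing part, and the genotype label is therefore unchecked. Dio1, the deiodinase gene known as a strong T3 target, had 0.719, 6.64, 57.7 and 8.98 RPKM in hypothyroid WT and 459 to 641 RPKM after T3. Hypothyroid WT replicate 3 thus stood apart within its group for this gene. Without it, the 3 members that changed after T3 kept their calls. Hepatocyte markers (5 of 5 measured) were abundant in each liver, with summed levels of 20416 to 49424 RPKM.

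After T3, 3 of the 10 members changed (limma on log2(RPKM + 0.1), adjusted p under 0.01 over all genes tested). Asl, which makes arginine, and Slc25a13, which brings aspartate out of the mitochondria, fell 1.96-fold and 1.92-fold, and Glud1, which frees ammonia from glutamate, rose 1.44-fold. Among all genes tested, 24.5% were called higher and 7.71% lower, against 1 and 2 of the 10 members. All 4 libraries of the T3 group lay above all 4 hypothyroid WT libraries for 1 member and below them for 4, where the shares over all genes were 35.8% and 10.8%. The median log2 difference of the members was -0.37, and that of all genes 0.23, so that most genes stood slightly higher after T3 on this scale. In bulk RNA, fewer cells of a type and less RNA per cell cannot be told apart. Scaling by the median of gene ratios takes this shift away and turns the split of all calls from 3413 higher and 1075 lower into 1729 and 1932. With that scaling Glud1 was not called and Ass1 was called lower.

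**Figure D1:**
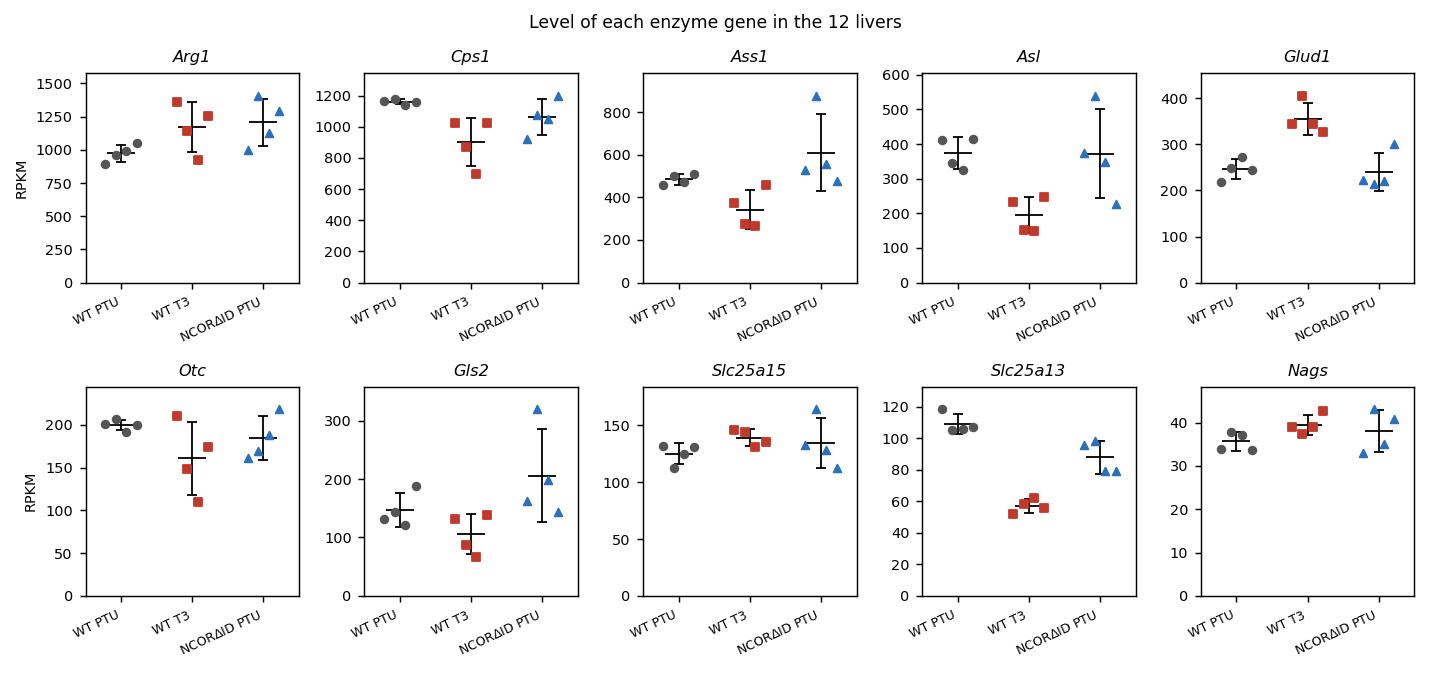
RPKM of the 10 genes (y axis from 0, one panel per gene, ordered by mean level) in the 4 livers of each group, with black bars for mean and SD. Asl and Slc25a13 sit lower and Glud1 higher in all T3 livers than in any hypothyroid WT liver, while the L-NCORdeltaID livers overlap with hypothyroid WT for each gene except Slc25a13.

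The acetylated regions of the series give the position of active chromatin around these genes. The deposited list holds 37200 regions of H3K9 or H3K27 acetylation (marks of active promoters and enhancers), merged over both marks and over hypothyroid and hyperthyroid WT livers, without a value per sample. On mm9, with gene starts from GENCODE M1, a region spanned the start of all 10 members, as for 95.8% of 3884 genes placed with a mean of at least 10 RPKM and 56.2% of all 19904 genes placed. The longest was at Ass1, at chr2:31307248-31373980, 66733 bp with 48253 bp behind the start. Slc25a13 had a region of 46136 bp at chr6:6125788-6171923, of which 41385 bp lay behind the start, and Cps1 one of 37786 bp at chr1:67167594-67205379. At Asl the region of 29041 bp (chr5:130493525-130522565) lay for the most part, 21563 bp, before the start, and at Glud1 the region of 24973 bp (chr14:35108953-35133925) reached 14960 bp before it and 10012 bp behind it. Regions at the other starts measured 21387 bp for Gls2, 20201 bp for Slc25a15, 19625 bp for Arg1, 10594 bp for Nags and 10503 bp for Otc. The median over the members was 23180 bp, beside 5997 bp over genes with at least 10 RPKM and 12010 bp over the 536 genes with at least 100 RPKM. Such a region can also hold the starts of neighbouring genes.

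**Figure D2:**
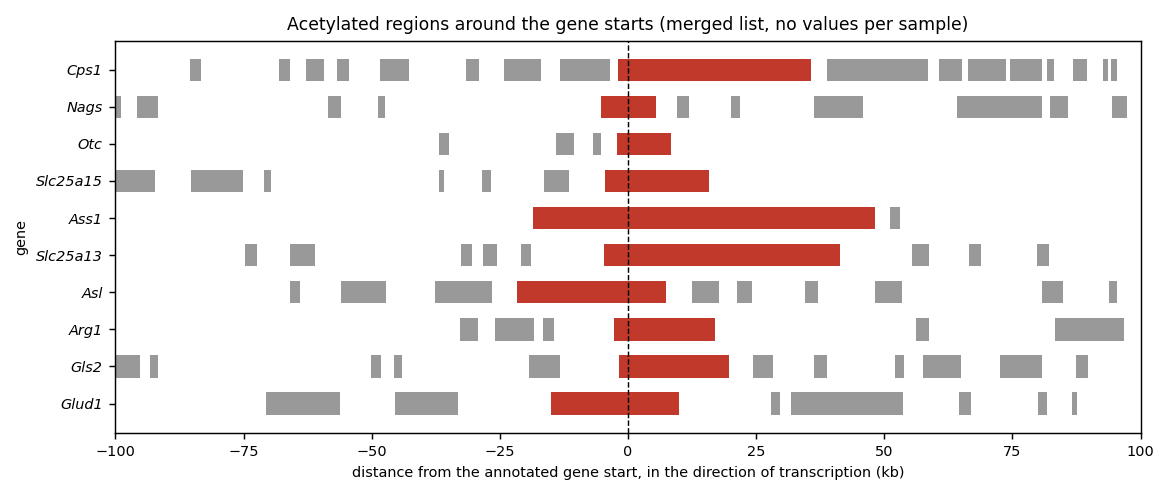
Acetylated regions (bars) by distance in kb from the annotated start of each gene, with negative values before the start in the direction of transcription. Red bars span the start, from 10503 bp at Otc to 66733 bp at Ass1, and grey bars are the other regions, of which Cps1 has the most within the 100 kb plotted on each side.

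Counted within 100 kb of the start, Cps1 had 17 regions, Gls2 12, Nags 11, Asl 10, Slc25a13 9, Glud1 8, Slc25a15 7, Arg1 6, Otc 4 and Ass1 2, in sum 86. The median was 8.5 for the members and 8 for genes with at least 10 RPKM. Cps1, whose annotation spans chr1:67169600-67277833, was overlapped by 10 separate regions, against 5 for Slc25a13, 3 for Glud1, 2 for Asl and 1 for each of the others. The genes differ in length, from Nags (chr11:102006827-102010791) to Slc25a13 (chr6:5991219-6167173), and these counts were not adjusted for it. Covered length within 100 kb ranged from 17532 bp at Otc to 117098 bp at Cps1. Differences in acetylation between conditions were not analysed here.

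Sequences before the start were taken from RefSeq promoters on GRCm38.p6, a later build than that of the regions, in which 6 of the 10 members were matched and Cps1, Asl, Arg1 and Gls2 were not. The 250 bases before the start were searched on both strands for 5 motifs, namely the half-site AGGTCA bound by nuclear receptors, its direct repeat with 4 bases between (DR4, the classical thyroid hormone receptor element, which also counts as a half-site), TTGCNNAA for C/EBP factors, TGACGTCA for CREB and CAAAGTCCA for HNF4A. These were present in 14.02%, 0.0152%, 9.56%, 1.55% and 0.384% of 32851 promoters of the same length. The sequences shown are those of the 2 changed members with an entry and of Nags, which had the only match, in capitals. It is the reverse complement of the half-site at 178 to 173 bases before the start. Slc25a13 is on the minus strand (chr6:6217174-6217423), and Glud1 (chr14:34310477-34310726) and Nags (chr11:102145263-102145512) are on the plus strand.
Slc25a13: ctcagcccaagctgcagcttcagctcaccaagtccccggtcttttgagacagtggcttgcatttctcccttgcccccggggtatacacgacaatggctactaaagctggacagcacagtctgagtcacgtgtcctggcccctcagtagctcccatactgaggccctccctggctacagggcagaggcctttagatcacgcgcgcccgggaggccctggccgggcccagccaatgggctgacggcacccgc
Glud1: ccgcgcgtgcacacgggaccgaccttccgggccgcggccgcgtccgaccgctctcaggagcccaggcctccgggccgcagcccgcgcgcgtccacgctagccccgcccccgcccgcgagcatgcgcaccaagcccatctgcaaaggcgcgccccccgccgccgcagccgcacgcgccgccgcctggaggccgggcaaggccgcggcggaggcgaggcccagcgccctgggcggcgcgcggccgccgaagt
Nags: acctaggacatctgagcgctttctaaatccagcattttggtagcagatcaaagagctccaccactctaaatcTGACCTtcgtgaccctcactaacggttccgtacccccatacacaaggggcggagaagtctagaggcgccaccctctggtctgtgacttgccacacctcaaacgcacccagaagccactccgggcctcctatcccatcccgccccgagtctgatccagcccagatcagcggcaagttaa
The GC content of these 250 bases was 62.8% for Slc25a13, 82.0% for Glud1 and 55.6% for Nags, beside a median of 52.4% over all promoters. No match in this window says only that these letters are not in it.

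Of the mitochondrial members, Cps1, carbamoyl phosphate synthetase and the entry step of the cycle, had 1164, 1181, 1140.2 and 1158 RPKM in hypothyroid WT and 1023, 871, 694 and 1022 RPKM after T3. In L-NCORdeltaID livers it had 923, 1078, 1051 and 1199 RPKM. All T3 libraries lay below all hypothyroid WT libraries, which were within a few percent of each other, and the L-NCORdeltaID libraries overlapped with both. The log2 difference was -0.38 (SE 0.14) after T3, which missed the threshold (adjusted p = 0.0446), and -0.13 (SE 0.11, adjusted p = 0.537) in L-NCORdeltaID livers. Leaving out T3 replicate 3, the lowest library, gave -0.26 after T3.

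Otc, ornithine transcarbamylase, makes citrulline from the product of Cps1. It had 201, 206, 192 and 199 RPKM in hypothyroid WT, 210.0, 148, 110.2 and 174 RPKM after T3 and 161, 169, 188 and 218 RPKM in L-NCORdeltaID livers. The T3 libraries spread from below to above the narrow range of hypothyroid WT, so that the groups overlapped. The log2 difference was -0.35 (SE 0.17, adjusted p = 0.113) after T3, with a 95% interval of -0.74 to 0.031, and -0.12 (SE 0.10, adjusted p = 0.523) in L-NCORdeltaID livers.

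Nags makes N-acetylglutamate, the activator that Cps1 needs. Its level was 33.8, 37.8, 37.2 and 33.8 RPKM in hypothyroid WT, 39.1, 37.3, 38.9 and 42.8 RPKM after T3 and 33.0, 43.2, 35.2 and 40.9 RPKM in L-NCORdeltaID livers, and all groups overlapped. Slc25a15, which carries ornithine into the mitochondria, had 132, 113, 125 and 131 RPKM, 146, 144, 131 and 135 RPKM and 133, 164, 129 and 113 RPKM in the same order of groups, again with overlap. The log2 differences after T3, 0.15 (95% interval -0.011 to 0.31) for Nags and 0.15 (95% interval -0.019 to 0.32) for Slc25a15, missed the threshold and turned to -0.088 and -0.083 under the other scaling. In L-NCORdeltaID livers they were 0.087 (95% interval -0.13 to 0.31) and 0.093 (95% interval -0.17 to 0.36).

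The cytosolic part of the cycle begins with Ass1, argininosuccinate synthetase, which joins citrulline with aspartate. It had 458, 501, 470.1 and 509.7 RPKM in hypothyroid WT, 373, 276, 265 and 456 RPKM after T3 and 528, 877, 558 and 478 RPKM in L-NCORdeltaID livers. All T3 libraries were below all hypothyroid WT libraries, by the least in replicate 4, and 1 L-NCORdeltaID library (replicate 2) stood far above the rest. The log2 difference after T3 was -0.54 (SE 0.17, adjusted p = 0.0252), which missed the threshold, and passed it without T3 replicate 4 (-0.69, adjusted p = 0.00396) or with median scaling (-0.77, adjusted p = 0.00847). In L-NCORdeltaID livers it was 0.29 (SE 0.18, adjusted p = 0.388), and 0.10 without replicate 2.

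Asl, argininosuccinate lyase, splits the product of Ass1 into arginine and fumarate. It had 411, 345, 325 and 413 RPKM in hypothyroid WT and 232, 153, 149 and 246 RPKM after T3, so that the highest T3 library was below the lowest hypothyroid WT library. Asl fell 1.96-fold (log2 difference -0.97, SE 0.18, adjusted p = 0.00238). This call was lost when genes with low values were also tested (adjusted p = 0.0148), a setting that adds genes to the adjustment. L-NCORdeltaID livers spread widely, with 373, 539.6, 348 and 226 RPKM on both sides of hypothyroid WT, and the log2 difference was -0.065 (SE 0.23, adjusted p = 0.906).

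Slc25a13 encodes citrin, the liver carrier that supplies Ass1 with aspartate from the mitochondria. It had 118, 105, 106 and 107 RPKM in hypothyroid WT, 51.6, 58.3, 62.0 and 55.8 RPKM after T3 and 95.5, 97.9, 78.9 and 79.0 RPKM in L-NCORdeltaID livers. The 3 groups did not overlap with each other. The fall after T3 was 1.92-fold (log2 difference -0.94, SE 0.076, adjusted p = 2.95e-05), and it was called in each fit without 1 library. In L-NCORdeltaID livers the log2 difference was -0.32 (SE 0.093), with an unadjusted p of 0.00774 in limma that did not pass adjustment over all genes (adjusted p = 0.0967).

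Arg1, liver arginase, releases urea from arginine and regenerates ornithine. Its level was 892, 958, 991 and 1051 RPKM in hypothyroid WT, 1364, 1144, 923 and 1255 RPKM after T3 and 998, 1408, 1126 and 1291 RPKM in L-NCORdeltaID livers. Both other groups reached higher than hypothyroid WT but overlapped with it. The log2 difference was 0.26 (SE 0.14, adjusted p = 0.148) after T3 and 0.30 (SE 0.13, adjusted p = 0.242) in L-NCORdeltaID livers.

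Of the 2 enzymes that free ammonia, Gls2, liver glutaminase, varied most between livers of a group. It had 132, 143, 122 and 189 RPKM in hypothyroid WT, 132, 87.3, 67.1 and 138 RPKM after T3 and 162, 320.0, 198 and 144 RPKM in L-NCORdeltaID livers, with overlap of both groups with hypothyroid WT. The coefficient of variation within groups was 20.1%, 32.5% and 38.6%, against 1.44%, 17.3% and 10.7% for Cps1. The log2 difference was -0.51 (SE 0.24, adjusted p = 0.101) after T3 and 0.44 (SE 0.24, adjusted p = 0.346) in L-NCORdeltaID livers, where it was 0.20 without replicate 2.

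Glud1, glutamate dehydrogenase of the mitochondria, moved the other way after T3. It had 219, 249, 273 and 244 RPKM in hypothyroid WT and 344, 406, 344 and 328 RPKM after T3, without overlap. Glud1 rose 1.44-fold (log2 difference 0.53, SE 0.10, adjusted p = 0.00221), and with median scaling the difference was 0.29 (adjusted p = 0.0575), so that the call depends on the scaling. L-NCORdeltaID livers had 223, 215, 221 and 301 RPKM, of which 3 were within the hypothyroid WT range or just below it and replicate 4 above it (log2 difference -0.048, SE 0.12, adjusted p = 0.867).

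**Figure D3:**
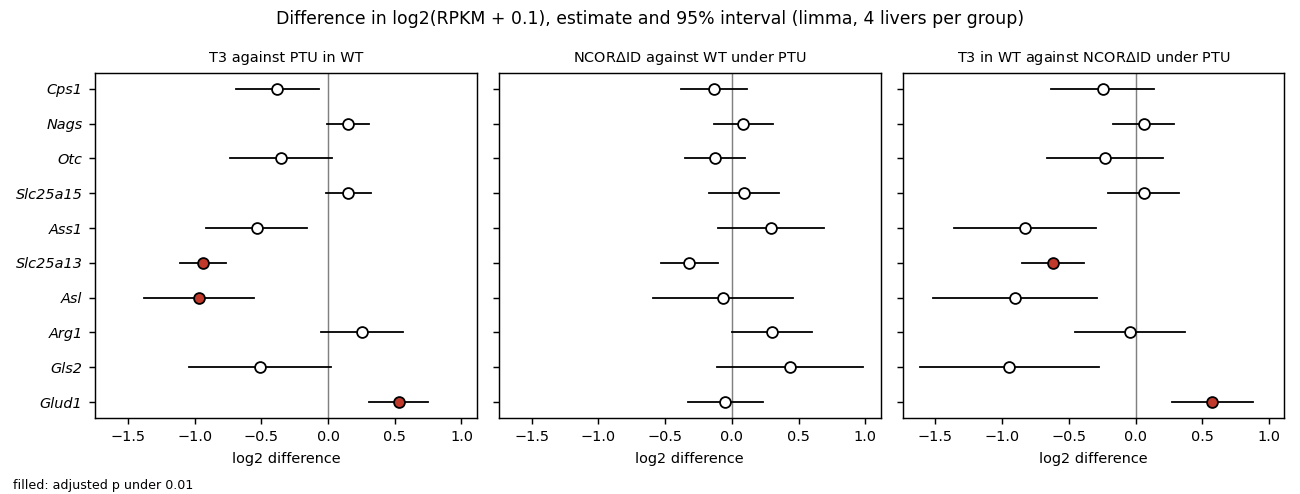
Log2 difference of each gene (point) with its 95% interval (line) in the 3 comparisons, on the RPKM scale as deposited, filled where the adjusted p is under 0.01. After T3 Asl and Slc25a13 are filled on the negative side and Glud1 on the positive side, and no gene is filled for L-NCORdeltaID. Nags and Slc25a15 lie above 0 after T3 here and below 0 with median scaling, with which Glud1 loses its call and Ass1 gains one.

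In hypothyroid L-NCORdeltaID livers, 0 of the 10 members were called against hypothyroid WT by limma, where 0.725% of all genes were called higher and 0.544% lower. At an unadjusted p under 0.05, 2 of 10 members passed, Slc25a13 and Arg1, near the 20.5% of all genes (2831 of 13790) that did so. None of the members had all 4 L-NCORdeltaID libraries above hypothyroid WT and 1, Slc25a13, had all below, beside 7.78% and 5.36% of all genes. The median log2 difference was 0.020 for the members and 0.033 for all genes. The 95% intervals of the log2 difference were widest for Gls2 (-0.11 to 0.99) and Asl (-0.59 to 0.46) and narrower for Otc (-0.35 to 0.10) and Cps1 (-0.38 to 0.12).

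The comparisons with hypothyroid WT share the same 4 control livers. Tested directly against each other, T3-treated WT and hypothyroid L-NCORdeltaID livers differed in 2 members, where 15.5% of all genes were called higher in T3-treated WT and 5.7% lower (2176 and 799 genes, or 1052 and 1281 with median scaling). Slc25a13 was 1.54-fold lower in T3-treated WT (log2 difference -0.62, SE 0.10, adjusted p = 0.00197), a call that was lost when the fit also held a term for the replicate number. Glud1 was 1.49-fold higher (log2 difference 0.58, SE 0.13, adjusted p = 0.00955), just inside the threshold, and this call was lost in 7 of 8 fits without 1 library (adjusted p = 0.0174 to 0.0332) and kept without L-NCORdeltaID replicate 4. For 1 member the T3 libraries lay above all L-NCORdeltaID libraries and for 3 below (Ass1, Slc25a13 and Gls2), beside 28.7% and 9.57% of all genes. Gls2 (-0.95, SE 0.30, adjusted p = 0.0325), Asl (-0.90, SE 0.27, adjusted p = 0.0278) and Ass1 (-0.83, SE 0.24, adjusted p = 0.0221) had larger log2 differences than Slc25a13 but missed the threshold, which Asl passed without L-NCORdeltaID replicate 4 (-1.12, adjusted p = 0.00778). For Arg1 the difference was -0.044, with an interval of -0.46 to 0.37.

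In each of 2 groups, 1 library was lowest or highest for most members. T3 replicate 3 had the lowest value of its group for 7 of 10 members and summed to 2785 RPKM over all members, against 3325 to 3915 RPKM in the other T3 livers. L-NCORdeltaID replicate 2 had the highest value for 7 of 10 members and summed to 4912 RPKM, against 3629 to 4090.0 RPKM in the others. The same library stood out for genes of amino acid breakdown that feed the cycle, with 576 RPKM of Got1 (94.5 to 244 in the other L-NCORdeltaID livers) and 741 RPKM of Sds (163 to 433), which were singled out after their values were seen. T3 replicate 3 had the lowest relative depth (0.682) and the highest summed level of Kupffer cell markers (114 RPKM), and L-NCORdeltaID replicate 2 had 63.6 RPKM of these markers against 24.97 to 34.3 RPKM in its group. Marco alone gave 27.9 of the 114 RPKM in T3 replicate 3 and 29.1 of the 63.6 RPKM in L-NCORdeltaID replicate 2. In the latter library Adgre1 and Vsig4 were also highest of the group, while Clec4f was lowest (13.9 RPKM). The part of these differences in the members' values was not tested.

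**Figure D4:**
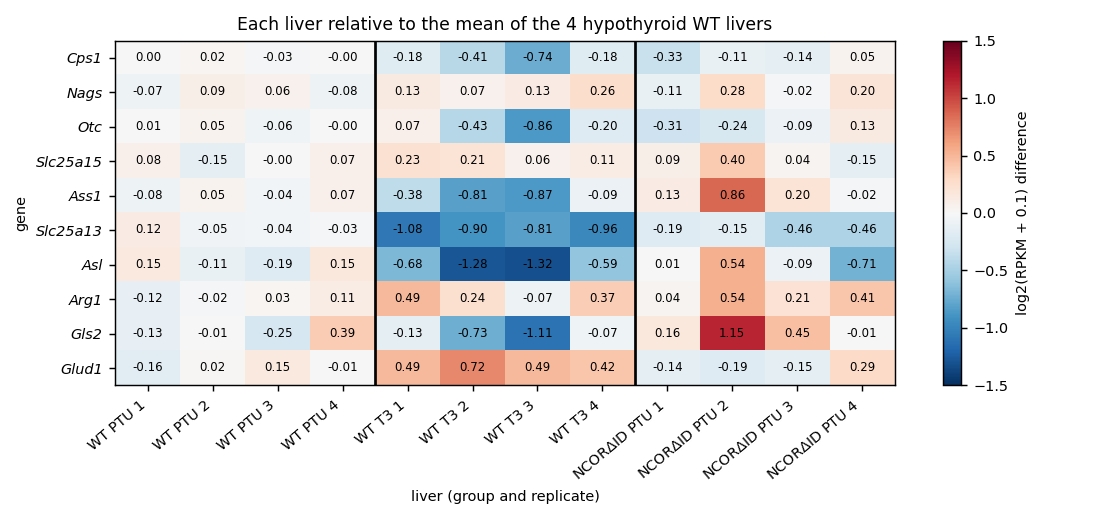
Difference of each liver from the mean of the 4 hypothyroid WT livers in log2(RPKM + 0.1) (color and printed value), with genes as rows in the order of the pathway and livers as columns. T3 replicates 2 and 3 are lowest for Ass1, Asl, Cps1 and Gls2, and L-NCORdeltaID replicate 2 is highest for Gls2 and Ass1.

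Ranked by Euclidean distance over the 12 livers after centering each gene, the genes nearest to Cps1 among 4260 genes with a mean of at least 10 RPKM were Ftcd (0.323), Otc (0.327) and Rida (0.390), in units of log2(RPKM + 0.1). Nearest to Gls2 were Ass1 (0.614), Afmid (0.746) and Tk1 (0.773). Otc and Ass1 are themselves members. Ftcd, which breaks down histidine-derived formiminoglutamate, had 193 ± 10.99 RPKM in hypothyroid WT, 153 ± 19.6 RPKM after T3 and 180.2 ± 23.1 RPKM in L-NCORdeltaID livers (n = 4 each), and Afmid, a formamidase of tryptophan breakdown, 63.4 ± 5.00, 42.6 ± 11.3 and 95.2 ± 24.4 RPKM.

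A further list of 42 genes covers what surrounds the cycle, namely amino acid degradation, transport, side branches and regulators, of which 41 were tested. After T3, 12 were higher and 10 lower, where 24.5% of all genes were called higher and 7.71% lower. The median log2 difference of the list was 0.00090. In transport all 9 genes tested were called, 4 higher and 5 lower. Slc25a12 (aralar, the aspartate-glutamate carrier that is otherwise low in liver) rose from 3.67–4.65 to 10.4–11.8 RPKM (2.67-fold, adjusted p = 9.87e-06), the opposite direction to Slc25a13, whose level was still several times that of Slc25a12. Slc38a3, which moves glutamine, fell 2.01-fold from 869–1046 to 439–492 RPKM (adjusted p = 5.57e-05). Slc38a4, an amino acid importer of liver, fell 2.32-fold (adjusted p = 1.26e-04), Slc1a2, a glutamate transporter, 2.53-fold (adjusted p = 2.07e-05) and Aqp9, a channel that passes urea, 1.57-fold (adjusted p = 1.12e-04).

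Among 11 genes of amino acid degradation, 2 were higher and 2 lower after T3, beside 24.5% and 7.71% of all genes. Hal, histidine ammonia lyase, fell 1.63-fold (from 97.3–112 to 54.2–66.7 RPKM, adjusted p = 2.05e-04). Side branches gave 1 higher and 2 lower of 13. Here Oat, which takes ornithine out of the cycle, had the largest change of the list, from 904, 569, 601 and 775 RPKM in hypothyroid WT to 42.3, 61.9, 57.6 and 64.9 RPKM after T3, a 12.5-fold fall (log2 difference -3.64, SE 0.18, adjusted p = 3.78e-06). In L-NCORdeltaID livers Oat had 1094, 1049.6, 629 and 608 RPKM and overlapped with hypothyroid WT. Glul, glutamine synthetase, rose 2.08-fold after T3 (from 125–203 to 248–431 RPKM, adjusted p = 0.00307), a call that was lost without hypothyroid WT replicate 1 or 4 (adjusted p = 0.0101 and 0.0112) and with median scaling (adjusted p = 0.0176).

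Regulators gave 5 higher and 1 lower of 8 after T3, beside 24.5% and 7.71% of all genes. Among them Nr3c1, the glucocorticoid receptor, rose 1.66-fold (adjusted p = 1.20e-04). Cebpb, a C/EBP factor, was the only one of the 41 genes called in L-NCORdeltaID livers, with 13.2, 10.3, 15.3 and 12.3 RPKM in hypothyroid WT and 24.4, 37.1, 34.3 and 33.0 RPKM in L-NCORdeltaID, a 2.5-fold rise (adjusted p = 0.00259) without overlap. That call was lost without hypothyroid WT replicate 4 (adjusted p = 0.0122) or L-NCORdeltaID replicate 3 (adjusted p = 0.0118), with no filter on low values (adjusted p = 0.0297) and with all 12 libraries in 1 fit (adjusted p = 0.0157). After T3, Cebpb had 46.2, 125, 56.7 and 49.3 RPKM, a 4.98-fold rise (adjusted p = 2.71e-04). The median log2 difference of the list in L-NCORdeltaID livers was 0.037.

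**Figure D5:**
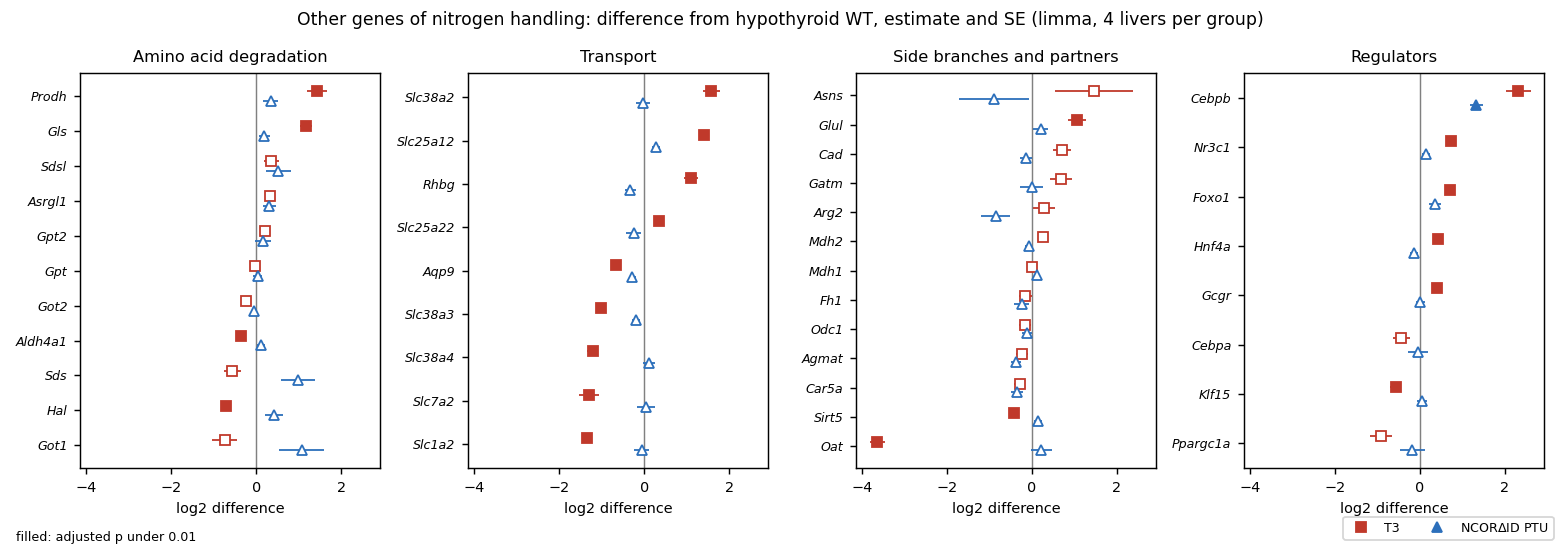
Log2 difference from hypothyroid WT (point) with its SE (line) for the 41 other genes of nitrogen handling tested, after T3 (red squares) and in L-NCORdeltaID livers (blue triangles), filled where the adjusted p is under 0.01. Oat is the lowest point after T3, and Cebpb the only filled triangle.

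Since the urea cycle is zoned, the markers of both zones are given beside it, of which 2 periportal (Hal and Sds) and 4 pericentral genes (Glul, Oat, Slc1a2 and Rhbg) are also in the list above. For both lists, the shares of all genes called after T3 were 24.5% higher and 7.71% lower. Of 9 periportal markers, 2 were higher and 4 lower after T3 and 0 called in L-NCORdeltaID livers (limma, 3 at an unadjusted p under 0.05, against 20.5% of all genes). Etnppl, a phospholyase of ethanolamine phosphate, fell 40.4-fold (from 116–257 to 3.19–5.79 RPKM, adjusted p = 3.35e-06) and Hsd17b13 2.92-fold (adjusted p = 5.31e-05), while Ctsc, a lysosomal protease, rose 6.45-fold (adjusted p = 1.20e-05). Of 10 pericentral markers, 5 were higher and 4 lower after T3 and 0 called in L-NCORdeltaID livers (limma, 3 at an unadjusted p under 0.05, where 20.5% of all genes passed that limit). Those that fell include Oat and Slc1a2 from above and Cyp2e1, the most abundant, from 4641–5949.9 to 795–1082 RPKM (5.42-fold, adjusted p = 1.07e-05), and those that rose include Glul. Neither list moved in 1 direction, and the zone of expression was not measured in these livers.

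Markers of other liver cells were also called after T3, where 24.5% of all genes were called higher and 7.71% lower. Kupffer cell markers were higher for 4 of 4 measured (1 listed marker is not named in the table), with sums of 22.6 to 29.5 RPKM in hypothyroid WT, 68.3 to 114 RPKM after T3 and 24.97 to 63.6 RPKM in L-NCORdeltaID livers. Stellate cell markers were higher for 3 of 5 (43.6 to 61.0 RPKM before, 72.2 to 82.1 RPKM after T3), immune cell markers for 3 of 5 (1.63 to 4.08 RPKM and 4.86 to 21.9 RPKM), endothelial markers for 2 of 5 (36.8 to 54.6 RPKM and 54.6 to 64.5 RPKM) and cholangiocyte markers for 1 of 5 with 1 lower (11.96 to 16.1 RPKM and 10.4 to 19.2 RPKM). Hepatocyte markers were lower for 2 of 5 (Alb and Ttr) and higher for 0, and their sum was 37764 to 49424 RPKM in hypothyroid WT and 20416 to 28457 RPKM after T3. Most of that sum was Alb, with a mean of 31803.8 RPKM in hypothyroid WT and 14324.5 RPKM after T3. Apoa1, Tat and Fgb were not called and had log2 differences above 0 (0.12, 0.29 and 0.67). For Fgb all T3 libraries lay above all hypothyroid WT libraries. The part of these markers in the members' values was not tested.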

How the data were processed

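Liver poly(A) RNA was sequenced from 4 mice per group. STAR (mm9) and HOMER were used by the authors to align reads and quantify RefSeq transcripts, with versions not given in the sources used here. Deposited values are RPKM per library. The submitters' notes also name DESeq2. Each library combines runs from 2 instrument models, in shares that are not given in the sources used here. Acetylated regions were called and merged by the authors over both marks and conditions, and the deposited list used here holds coordinates only. The authors also published tag counts for acetylated domains, averaged over replicates, which were not used here. Columns left unused numbered 0.

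Of 31370 transcripts, 1 had no gene name, and the first listed transcript represented each gene. limma 3.58.1 (R 4.3.3) with a variance trend was fitted on log2(RPKM + 0.1) to the 8 libraries compared, over genes that reached 0.1 RPKM in 4 or more of them (13941, 13790 and 14017 genes). The p-values were adjusted by Benjamini-Hochberg over all of them and called under 0.01. A fold change on this scale understates the change of genes with low values. The fits were tested on simulated data. The RPKM table gives no read counts, so no count test was run and the depth behind each value is known only relative to other libraries. Gene starts were taken from GENCODE M1 (mm9) by symbol and promoters from RefSeq. Scripts used Python 3.11.15, pandas 2.3.3 and matplotlib 3.10.9.

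The members and lists were chosen with earlier results of these data known. Beside the members, the text names Glul, the 8 other nitrogen genes with the smallest adjusted p and the 3 per zone list among those called in each comparison, Ncor1, Dio1, the markers needed for a list's range, and the 3 nearest genes to Cps1 and Gls2. Thrsp, also in that rule, is given with the closing observations. The alternatives tried were other pseudocounts, filters, thresholds, scaling, transcripts and windows, a joint fit, a replicate block, no variance trend and each library left out in turn.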

Additional observations from a re-analysis of the deposited data

Results flagged for a closer look

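Of 81 groups of 4 livers (27 genes in 3 groups), 7 held a library set apart from the other 3 by more than the 95% critical value of Dixon's test, where chance gives about 1 in 20. Among the members these were Slc25a13 in hypothyroid WT replicate 1 (118 RPKM, others 105 to 107 RPKM) and Glud1 in L-NCORdeltaID replicate 4 (301 RPKM, others 215 to 223 RPKM). In the same L-NCORdeltaID library Nr3c1 stood at 16.2 RPKM (others 13.5 to 13.7 RPKM). The other such values were 112 RPKM of Hal in hypothyroid WT replicate 4 (others 97.3 to 98.9 RPKM), 4168 RPKM of Cyp2e1 in L-NCORdeltaID replicate 1 (others 3313 to 3346 RPKM), 125 RPKM of Cebpb in T3 replicate 2 (others 46.2 to 56.7 RPKM) and 57.7 RPKM of Dio1 in hypothyroid WT replicate 3 (others 0.719 to 8.98 RPKM). Without L-NCORdeltaID replicate 4, the log2 difference of Glud1 between L-NCORdeltaID and WT was -0.16, and without hypothyroid WT replicate 1 that of Slc25a13 after T3 was -0.90 (adjusted p = 1.40e-04).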

How the results depend on the processing

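Of 1496 recomputed values for 83 results, 1405 kept their direction and their side of the threshold (counts of genes within 1.5 times) and 15 changed sign. The cause of the changes was not tested, except that a stricter threshold by construction cannot raise a count. After T3, the number of members called lower was 1 with no filter on low values, 4 at an adjusted p under 0.05 and 0 with a log2 fold change above 1, and the number called higher was 0 with median of gene ratios scaling and 0 with a log2 fold change above 1. Other nitrogen genes called after T3 numbered 7 higher and 5 lower with a log2 fold change above 1. Periportal markers called higher numbered 1 and pericentral 3 with no filter, and pericentral 3 with median of gene ratios scaling. In L-NCORdeltaID livers, other nitrogen genes called higher numbered 0 with no filter and 0 with all 12 libraries in 1 fit, and pericentral markers called lower 1 at an adjusted p under 0.05. Between T3-treated WT and L-NCORdeltaID, members called higher numbered 0 with no filter, no variance trend, median scaling or a log2 fold change above 1, and members called lower 2 in the joint fit, 4 at an adjusted p under 0.05 and 0 with a log2 fold change above 1. Regions near the members numbered 45 within 50 kb and 143 within 200 kb.

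Leaving out 1 library at a time gave 2 to 3 members called lower and 1 called higher after T3, 8 to 11 other nitrogen genes higher, 1 to 3 periportal and 3 to 5 pericentral markers higher. In L-NCORdeltaID livers it gave 0 to 2 other nitrogen genes and 0 to 1 periportal markers higher and 0 to 1 pericentral markers lower. Between T3-treated WT and L-NCORdeltaID it gave 0 to 1 members higher and 1 to 2 lower. These fits changed the sign of differences that were near 0. In L-NCORdeltaID livers the log2 difference ranged from -0.16 to 0.0027 for Glud1 (0.0006 without L-NCORdeltaID replicate 2 and highest without hypothyroid WT replicate 3), from -0.0085 to 0.17 for Slc25a15 (lowest without replicate 2), from -0.20 to 0.073 for Slc1a2 (above 0 without replicates 3 and 4) and from -0.27 to 0.15 for Asl (highest without replicate 4). Between T3-treated WT and L-NCORdeltaID it ranged from -0.13 to 0.065 for Arg1 (above 0 without T3 replicate 3 or L-NCORdeltaID replicate 2), from -0.0055 to 0.12 for Nags and from -0.021 to 0.16 for Slc25a15 (lowest without L-NCORdeltaID replicates 1 and 4). Median of gene ratios scaling turned Nags (-0.088), Slc25a15 (-0.083) and Ncor1 (-0.10) after T3 and Nags (-0.13) and Slc25a15 (-0.13) between T3-treated WT and L-NCORdeltaID.

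The replicate numbers are shared between groups. Same-numbered libraries correlated between -0.123 and 0.166 in their deviations from the group means. Any pairing by number was thus weak, and whether the livers were paired is not known. With the replicate block, genes called moved from 3413 higher and 1075 lower to 2718 and 888 after T3, from 100 and 75 to 20 and 25 in L-NCORdeltaID livers, and from 2176 and 799 to 1152 and 490 between T3-treated WT and L-NCORdeltaID. Other nitrogen genes called higher in L-NCORdeltaID livers then numbered 0, and members called between T3-treated WT and L-NCORdeltaID 0 higher and 0 lower, while the 3 members called after T3 kept their calls and Glul did not (adjusted p = 0.0124). Over all genes, no filter gave 21 higher and 22 lower in L-NCORdeltaID livers and 1292 and 477 between T3-treated WT and L-NCORdeltaID, an adjusted p under 0.05 gave 5244 and 1636 after T3, 344 and 257 in L-NCORdeltaID and 3995 and 1412 between T3-treated WT and L-NCORdeltaID, and a log2 fold change above 1 gave 1155 and 484 after T3 and 774 and 421 between them. Median scaling gave 1052 higher and 1281 lower between T3-treated WT and L-NCORdeltaID, where RPKM as deposited gave 2176 and 799. In L-NCORdeltaID livers no variance trend gave 63 and 57, the joint fit 136 and 115, and fits without 1 library 36 to 110 and 28 to 77. Without 1 library, between T3-treated WT and L-NCORdeltaID, they gave 1182 to 1905 and 469 to 767. With 4 livers per group, the widest intervals among the 10 members in L-NCORdeltaID livers were those of Gls2 and Asl.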

Other observations

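Some values near the cycle fall outside its comparisons and were singled out after they were seen. Asns, which makes asparagine from aspartate and glutamine, spread widely between livers of a group, from 0.604 to 3.53 RPKM in hypothyroid WT, from 0.705 to 14.5 RPKM after T3 and from 0.322 to 5.18 RPKM in L-NCORdeltaID livers, and was not called in either comparison with hypothyroid WT (adjusted p = 0.21 and 0.578, limma). Prodh, which starts proline breakdown, rose 2.69-fold after T3 (from 46.7–75.7 to 115–233 RPKM, adjusted p = 0.001). Slc38a2, an importer of small neutral amino acids, rose 3-fold (adjusted p = 2.12e-04) while Slc7a2, which imports arginine and ornithine, fell 2.46-fold (adjusted p = 0.00198). Cyp1a2, a pericentral marker, had 763, 718, 662 and 717 RPKM in hypothyroid WT and 272, 289.8, 388 and 564 RPKM in L-NCORdeltaID livers without overlap (adjusted p = 0.0368, not called). Thrsp, a lipogenic gene known to respond to T3, had 209, 490.0, 352 and 237 RPKM in hypothyroid WT, 2359.6, 1336, 847 and 1844 RPKM after T3 (adjusted p = 8.13e-04) and 1059.6, 454, 1081 and 779 RPKM in L-NCORdeltaID livers (adjusted p = 0.0542).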
